A study of Mus musculus with 18 samples.

Results

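The alpha and beta crystallins are 8 genes here: the alpha crystallins Cryaa and Cryab, the acidic beta crystallins Cryba1, Cryba2 and Cryba4, and the basic beta crystallins Crybb1, Crybb2 and Crybb3. They were followed through every probe set whose platform annotation names only 1 of these symbols, which gave 10 probe sets, 3 of them for Cryab, of 34945 probe sets that name 1 gene, or 8 of 18193 genes. No probe set named a member together with another gene. The arrays were 18 Affymetrix mouse arrays of retina from male C57BL6/J mice, 2 months old, whose eyes had been injected into the vitreous at day 0. The injection was BSS, the control, or DEX (dexamethasone) or TAA (triamcinolone), both of them glucocorticoids, and the retina was taken at day 7 or day 30. This gives 6 groups with 3 biological replicates each, and all mice, controls included, had an injection. The labels used here give no dose and do not say whether a replicate holds the retina of 1 eye or of several, so the p-values measure the spread between these arrays.

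Alpha crystallins are small heat shock proteins that keep damaged or partly unfolded proteins from clumping, and beta crystallins are compact structural proteins of the betagamma fold. Both are packed at very high concentration in the fibre cells of the lens, where they give the lens its transparency and refractive power. They are also made at lower levels in the retina, where Cryab is found in glia and pigment epithelium and where several crystallins respond to injury.

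The deposited values are log2 values centred on each probe set's median over the 18 arrays, so 0 stands for the middle of the series. They hold no expression level and no signal over background, so genes cannot be ranked by abundance, and whether a crystallin was near the detection limit on an array cannot be read from them. Base 2, and higher values for more RNA, are assumed from the usual output of RMA, the normalization that the submitters' processing notes name. In bulk retina, fewer cells of a type and less RNA per cell cannot be told apart.

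Sequence upstream of the start site is shown as background. Its part in the array values of these genes was not tested. RefSeq promoters on GRCm38.p6 matched 7 of the 8 genes; Cryab had no entry. In the 250 bases before the start, TGCTGA, the core of the element that Maf transcription factors bind, was found on either strand in 6 of the 7 promoters, compared with 16.1% of all 32851 promoters in the table. Maf factors are known to switch on crystallin genes in lens fibre cells. The last 140 bases before the start are given here 5′ to 3′ on the strand of each gene, with the TGCTGA letters in capitals, for Cryaa and Cryba1, the pair with the widest range, for Cryba4 and Crybb1, which lie head to head on chromosome 5, and for Crybb2, the promoter without the motif.
Cryaa, chr17:31677791-31677930, plus strand: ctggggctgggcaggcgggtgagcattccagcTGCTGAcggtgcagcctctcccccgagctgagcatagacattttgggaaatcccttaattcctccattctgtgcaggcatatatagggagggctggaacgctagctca
Cryba1, chr11:77725294-77725433, minus strand: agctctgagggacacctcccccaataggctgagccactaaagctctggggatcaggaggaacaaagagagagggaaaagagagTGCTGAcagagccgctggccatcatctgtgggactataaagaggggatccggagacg
Cryba4, chr5:112252519-112252658, minus strand: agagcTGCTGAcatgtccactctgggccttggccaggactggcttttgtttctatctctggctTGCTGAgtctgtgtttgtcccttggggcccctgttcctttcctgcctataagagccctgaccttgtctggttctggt
Crybb1, chr5:112255680-112255819, plus strand: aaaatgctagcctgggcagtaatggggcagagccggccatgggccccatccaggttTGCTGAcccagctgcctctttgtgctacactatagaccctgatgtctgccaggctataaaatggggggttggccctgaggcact
Crybb2, chr5:113070118-113070257, minus strand: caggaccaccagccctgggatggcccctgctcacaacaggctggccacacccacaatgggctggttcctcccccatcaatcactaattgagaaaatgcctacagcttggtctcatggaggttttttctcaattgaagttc

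The motif lay 108 to 103 bases before the start in Cryaa, 57 to 52 in Cryba1 and 84 to 79 in Crybb1. Cryba4 held it 3 times, at 182 to 177, 135 to 130 and 77 to 72 bases before the start. In Crybb3 (67 to 62 bases before the start) and Cryba2 (149 to 144) it was on the opposite strand. TATAAA, the TATA box, was found in 2 of the 7 promoters, those of Crybb1 and Cryba1, and in 12.4% of all promoters. The glucocorticoid response element, searched as AGAACA, any 3 bases and TGTTCT, was in 0 of the 7 and in 0.0091% of all promoters, and its part TGTTCT alone was in 2 of the 7, those of Cryba2 and Crybb3, and in 16.1% of all. The heat shock element was searched in both spacings, and all motifs were searched on both strands. GAANNTTC was in 0 of the 7 and 6.69% of all promoters, and TTCNNGAA was in Cryba1 alone and in 7.17% of all. These matches describe letters in a window and say nothing of which factors bound there. Each match of the whole glucocorticoid element also counts for its part.

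Some arrays stood apart on these genes. The mean of the 8 genes was 5.11 on TAA day 30 replicate 3, 2.37 on BSS day 30 replicate 3 and 1.94 on BSS day 30 replicate 1. It was below -1 on 4 arrays, DEX day 7 replicates 2 (-1.32) and 3 (-1.79), TAA day 7 replicate 2 (-1.76) and DEX day 30 replicate 1 (-1.84), and between -0.41 and 0.70 on the other 11 arrays. The high and low arrays thus came from different groups, and each group other than BSS day 7 held at least 1 of them. Over all probe sets, the SD of an array ran from 0.147 to 0.35, widest on TAA day 30 replicate 2 and TAA day 7 replicate 2, and it was 0.208 on TAA day 30 replicate 3. Comparisons that use TAA day 30 replicate 3 are given with and without it.

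**Figure D1:**
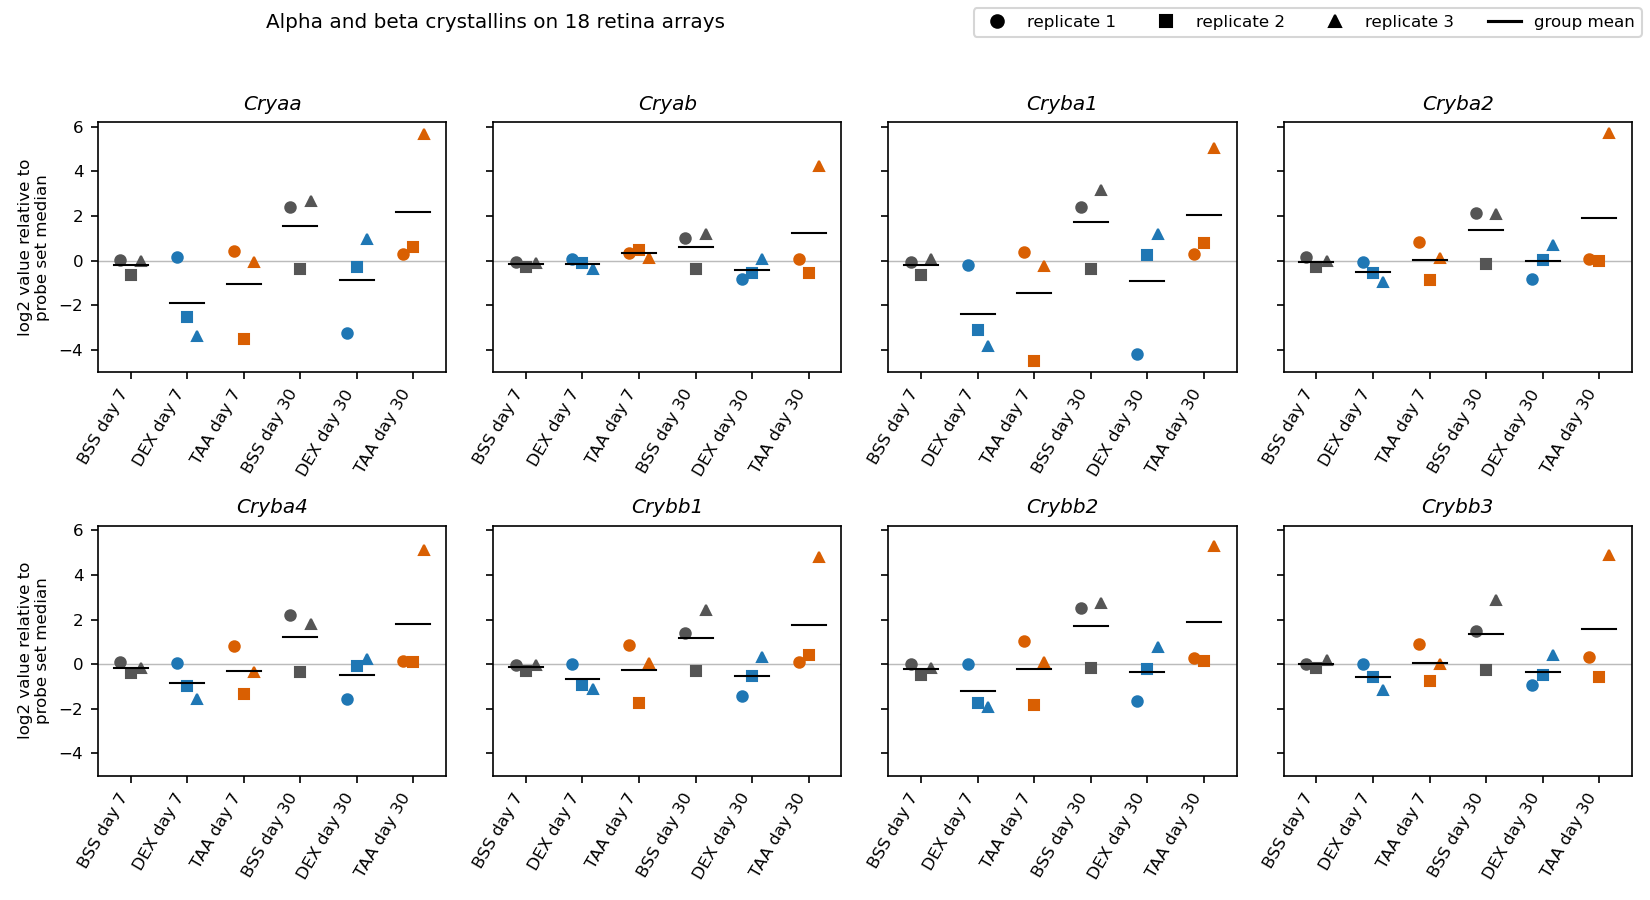
Log2 values relative to each probe set's median over 18 arrays (vertical axis) for the 8 genes, 1 probe set per gene, in the 6 groups; points are arrays, with the shape giving the replicate number and the colour the injection, and lines are group means. TAA day 30 replicate 3 is the highest array for all 8 genes, and its Cryaa value is 5.70.

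Cryaa, the alpha crystallin that is largely restricted to the lens in the body, was measured at day 7 (1452486_a_at) at 0.014, -0.64 and -0.014 with BSS, 0.14, -2.53 and -3.38 with DEX, and 0.43, -3.51 and -0.075 with TAA, in replicates 1 to 3. At day 30 it was 2.40, -0.38 and 2.67 with BSS, -3.27, -0.31 and 0.98 with DEX, and 0.28, 0.59 and 5.70 with TAA. The BSS arrays of day 7 lay close together, whereas every other group held both ordinary and extreme arrays, and the groups overlapped at each day. Its whole range was 9.21 on the log2 scale, rank 3 of 34945 probe sets.

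Cryab, the alpha crystallin also made outside the lens as a stress protein, was at -0.051, -0.28 and -0.10 at day 7 with BSS, 0.093, -0.12 and -0.38 with DEX, and 0.36, 0.49 and 0.13 with TAA (1416455_a_at). At day 30 it was 0.9995, -0.37 and 1.18 with BSS, -0.84, -0.54 and 0.088 with DEX, and 0.051, -0.55 and 4.26 with TAA. At day 7 all 3 TAA arrays were above all 3 BSS arrays, as for 4.48% of all probe sets. They were also above all 3 DEX arrays, as for 5.63% of all, and at day 30 the groups overlapped. A second Cryab probe set (1434369_a_at) had a correlation of 0.977 with the first over the 18 arrays and 0.926 without TAA day 30 replicate 3. On this second probe set TAA and BSS overlapped at day 7, with the lowest TAA array at 0.10 and the highest BSS array at 0.11. The third (1435837_at), whose annotation gives no sequence accession, stayed between -0.14 and 0.27, ranked 32441 of 34945 by range, and had a correlation of 0.01 with the first.

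Cryba1, an acidic beta crystallin of the lens that is also made in the retina, ranged most of all 34945 probe sets, over 9.54 on the log2 scale (1450671_at). At day 7 it was -0.081, -0.63 and 0.081 with BSS, -0.21, -3.09 and -3.83 with DEX, and 0.37, -4.50 and -0.25 with TAA. At day 30 it was 2.40, -0.36 and 3.19 with BSS, -4.19, 0.24 and 1.19 with DEX, and 0.31, 0.79 and 5.04 with TAA. DEX day 7 replicates 2 and 3, TAA day 7 replicate 2 and DEX day 30 replicate 1 were the low arrays, and the groups overlapped at each day.

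The other acidic beta crystallins varied less below 0. Cryba2 (1419011_at) was at 2.12, -0.13 and 2.09 with BSS at day 30, -0.82, 0.016 and 0.70 with DEX and 0.080, -0.032 and 5.71 with TAA, the highest value of any probe set in the series. Cryba4 (1420686_at) was at 2.22, -0.35 and 1.78, at -1.58, -0.063 and 0.21, and at 0.13, 0.12 and 5.14 in the same groups. At day 7, Cryba2 was at 0.16, -0.29 and -0.016 with BSS, -0.048, -0.57 and -0.96 with DEX and 0.84, -0.88 and 0.14 with TAA. On the 4 low arrays Cryba2 lay between -0.96 and -0.57 and Cryba4 between -1.58 and -0.98, far from the -4.50 to -3.09 of Cryba1 there.

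Among the basic beta crystallins, which partner the acidic ones in the beta crystallin oligomers of the lens, Crybb2 (1420536_at) was at 2.52, -0.16 and 2.76 with BSS at day 30, -1.68, -0.21 and 0.79 with DEX and 0.25, 0.15 and 5.28 with TAA. At day 7 it was -0.0052, -0.48 and -0.15 with BSS, 0.0052, -1.75 and -1.94 with DEX and 1.06, -1.83 and 0.11 with TAA. Crybb2 thus had the same high and low arrays as Cryaa and Cryba1. Crybb1 (1418306_at) at day 30 was 1.38, -0.30 and 2.44 with BSS, -1.42, -0.55 and 0.30 with DEX and 0.076, 0.39 and 4.82 with TAA, and Crybb3 (1419005_at) was 1.50, -0.28 and 2.88, then -0.93, -0.47 and 0.39, then 0.34, -0.59 and 4.92. Their lowest values were -1.73 on TAA day 7 replicate 2 and -1.16 on DEX day 7 replicate 3. Of the 18 arrays, 6 had all 8 genes above 0 and 5 had all 8 below 0.

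The top of the order of group means rests on 1 array. With all arrays TAA day 30 was highest and BSS day 30 next for all 8 genes. Without TAA day 30 replicate 3, BSS day 30 was highest for all 8, and TAA day 30 was the second for 5 genes, the third for Cryba2, the fourth for Crybb3 and the fifth for Cryab. The lowest was DEX day 7 for 7 genes and DEX day 30 for Cryab, with and without that array. Between these ends the order differed between genes: with all arrays the third was BSS day 7 for 5 genes and TAA day 7 for 3, and the next places were split over more groups. For Cryaa the order was 2.19 ± 3.04 (SD, n = 3) at TAA day 30, 1.56 ± 1.69 at BSS day 30, -0.21 ± 0.37 at BSS day 7, -0.87 ± 2.18 at DEX day 30, -1.05 ± 2.14 at TAA day 7 and -1.92 ± 1.84 at DEX day 7. Without replicate 3 the Cryaa mean at TAA day 30 was 0.44 ± 0.22 (SD, n = 2). Of 40 pairs of neighbouring groups in the orders with all arrays, 5 per gene, 7 differed by more than the larger SD of the pair and the rest by less. Of these 7, 4 were BSS day 30 above BSS day 7, for Cryaa, Cryba1, Cryba4 and Crybb2, and none was between TAA day 30 and BSS day 30.

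The spread within groups was wide. The residual SD of the fit over groups was 2.21 for Cryba1, the widest of 34945 probe sets, and 2.04 for Cryaa, rank 3. Crybb2 was rank 4, Cryba2 6, Cryba4 7, Crybb3 8, Crybb1 10 and the first Cryab probe set 18. The median over the 10 probe sets was 1.47, compared with 0.168 over all, whereas the share of variance that lay between groups was 36.9% in the median for the 10 and 36.3% for all. Rank 2 was Crygs, gamma S crystallin, which is no member.

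The 7 genes other than Cryab were high and low on the same arrays. Over the 18 arrays, the 21 pairs among them had correlations from 0.841 to 0.987 (median 0.957), and from 0.804 to 0.993 without TAA day 30 replicate 3. The 7 pairs with Cryab had 0.661 to 0.937, and 0.502 to 0.828 without that array. These are descriptions, since the points are the same 18 RNA samples and the genes share their arrays.

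Cryab departed from the others on the extreme arrays. It was above all 7 other genes on 3 arrays, and these are 3 of the 4 low ones. On TAA day 7 replicate 2, Cryab was at 0.49 and the median of the other 7 genes at -1.73. On DEX day 7 replicates 2 and 3, Cryab stood 0.87 and 1.20 above that median. It was below all 7 on 6 arrays, among them BSS day 30 replicates 1 and 3, by 1.22 and 1.49, and TAA day 30 replicate 3, by 0.88.

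**Figure D2:**
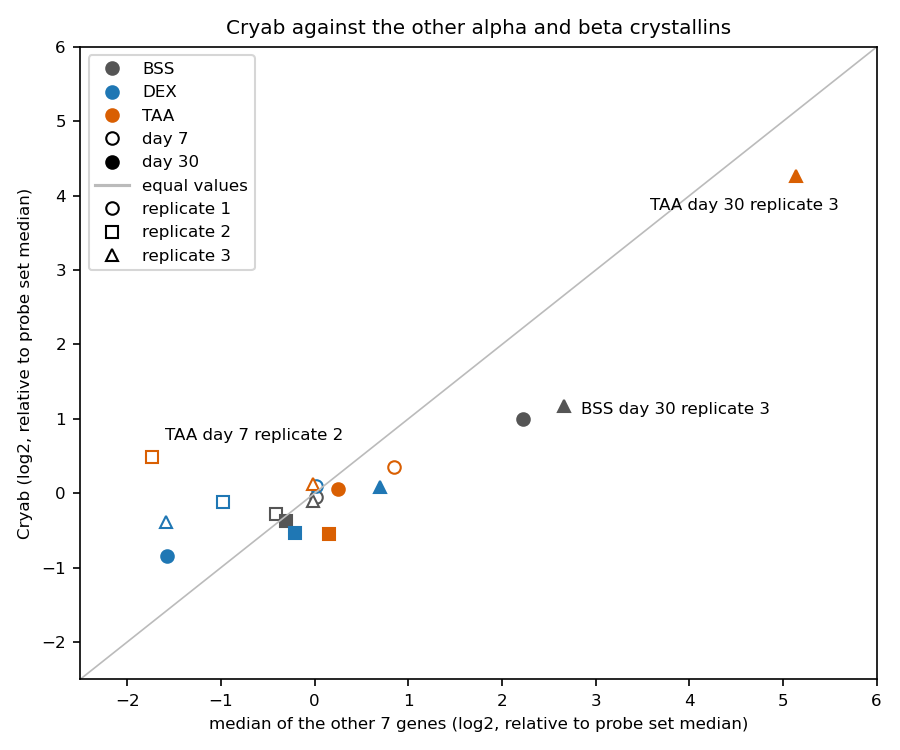
Cryab (vertical axis) against the median of the other 7 genes (horizontal axis), both as log2 values relative to the probe set median, for 18 arrays; colour is the injection, filled points are day 30, and the marker shape is the replicate number. Cryab is at 0.49 on TAA day 7 replicate 2, where the other genes' median is -1.73, and at 4.26 on TAA day 30 replicate 3, where it is 5.14.

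Genes marking reactive glia were high on the array where Cryab departed most. The mean of 11 such genes was 2.17 on TAA day 7 replicate 2, the highest of the 18 arrays, with 11 of 11 above 0 and Gfap, the filament protein of reactive glia, at 2.11. In the TAA day 7 group this mean ran from 0.038 to 2.17, with BSS at day 7 from -0.66 to -0.19 and with DEX at day 7 from 0.50 to 0.75. Its part in the Cryab values was not tested. Hspb1, another small heat shock protein, was at 0.55 on that array, and Hspb2, the gene beside Cryab, at -0.20.

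Dexamethasone against BSS at day 7 gave differences of -2.17 ± 1.50 (SE) for Cryba1, -1.71 ± 1.39 for Cryaa, -1.02 ± 1.12 for Crybb2 and 0.0091 ± 0.78 for Cryab, and the other genes lay between Crybb2 and Cryab. The median over the 10 probe sets was -0.57, with -0.0041 over all probe sets, and it was -0.89 without DEX day 7 replicate 1 and -0.29 without DEX day 7 replicate 3. None of the 10 passed limma's test with Benjamini-Hochberg adjustment at 0.05, and 0% of all probe sets did; the smallest adjusted p among the 10 was 1. At an unadjusted p under 0.05, 0 of the 10 and 3.41% of all were called. None of the 10 had groups that did not overlap, beside 7.35% of all higher and 7.08% lower. Differences over 1 in size were found for 3 of the 10 and 0.0773% of all.

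Triamcinolone against BSS at day 7 had a median member difference of 0.012 and a range from -1.25 (Cryba1, ± 1.50 SE) to 0.47 (Cryab, ± 0.78). Its adjusted p-values in limma were 1 for all 10, with 0.00286% of all probe sets called, and at an unadjusted p under 0.05 it called 0 of the 10 and 3.83% of all. For this Cryab probe set every TAA array was above every BSS array, which held for 1 of the 10 probe sets and 4.48% of all; the second Cryab probe set, at 0.42 ± 0.72, overlapped. Cryaa was at -0.84 ± 1.39, and without TAA day 7 replicate 2 at 0.39. The median was -0.52 when TAA day 7 replicate 1 was left out and was 0.39 when its replicate 2 was, and each of the 7 genes other than Cryab turned sign when 1 of the arrays compared was left out.

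At day 30, dexamethasone against BSS gave -2.66 ± 1.50 for Cryba1, -2.43 ± 1.39 for Cryaa, -2.07 ± 1.12 for Crybb2, -1.73 ± 0.96 for Crybb1 and -1.03 ± 0.78 for Cryab. The median over the 10 was -1.70, beside -0.023 over all probe sets, and 8 of the 10 had a difference over 1 in size, beside 0.206% of all. In limma with Benjamini-Hochberg adjustment 0 of the 10 and 0% of all passed, with the smallest adjusted p of 0.468 for Crybb2. At an unadjusted p under 0.05, 0 of the 10 and 11.8% of all were called, and none of the 10 had groups that did not overlap, beside 5.26% of all higher and 9.28% lower. BSS replicates 1 and 3 were high and BSS replicate 2 lay among the DEX arrays for all 8 genes, and DEX replicate 1 was the lowest DEX array for all 8. Without BSS day 30 replicate 3 the median was -1.06, without DEX day 30 replicate 1 it was -1.08, and without BSS day 30 replicate 2 it was -2.47. Without DEX day 30 replicate 1, Cryba1 was at -1.03 and Cryaa at -1.23. Without BSS day 30 replicate 3, Crybb1 was at -1.10 and Crybb3 at -0.95. With limma's array weights 1 of the 10, Cryba1 at -4.38, passed (adjusted p 0.0398), beside 5200 of all probe sets. With quantile normalization the median was -1.31 and 0 of the 10 passed.

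Triamcinolone against BSS at day 30 had small member differences with a large spread, from 0.11 to 0.65 with a median of 0.43. It called 0 of the 10 probe sets and 0% of all in limma, with the smallest adjusted p of 0.855, and at an unadjusted p under 0.05 it called 0 of the 10 and 7.03% of all. The groups did not overlap for 1 of the 10, the flat Cryab probe set 1435837_at (0.11 ± 0.10), and for 5.88% of all higher. Without TAA day 30 replicate 3 the median was -1.11, and Cryaa went from 0.63 ± 1.39 to -1.13; without TAA day 30 replicate 2 the median was 1.27, and without BSS day 30 replicate 2 it was -0.19. Quantile normalization of all 18 arrays also turned all 8 genes below 0, from -0.55 for Crybb2 to -0.096 for Cryaa.

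Dexamethasone against triamcinolone shares its arrays with the comparisons above. At day 7 the median was -0.59 and 0 of the 10 probe sets passed in limma (smallest adjusted p 0.939), beside 0% of all. That median was -0.14 without TAA day 7 replicate 1, -0.26 without DEX day 7 replicate 3 and -1.04 without TAA day 7 replicate 2. At an unadjusted p under 0.05, 0 of the 10 and 6.28% of all were called. The Cryab probe sets other than 1435837_at were lower with DEX with no overlap, 2 of the 10 and 5.63% of all, at -0.46 ± 0.78 and -0.65 ± 0.72. At day 30 the differences were -3.06 ± 1.39 for Cryaa, -2.96 ± 1.50 for Cryba1, -2.32 ± 0.96 for Crybb1 and -1.68 ± 0.78 for Cryab. Differences over 1 in size were found for 9 of the 10 and 0.492% of all. Of the 10, 4 were lower at an unadjusted p under 0.05, beside 8.66% of all, and 0 passed the adjusted test (smallest 0.231), beside 0% of all. Without TAA day 30 replicate 3 the median moved from -2.11 to -0.39. Cryaa was then at -1.30, Cryba1 at -1.47, Crybb1 at -0.79 and Cryab at -0.18. The counts by size and by unadjusted p were made with all arrays only. With array weights 9 of the 10 passed, with a median of -3.82, beside 4356 of all probe sets. That weighted fit was made with all arrays only. Its weights were 1.66 for TAA day 30 replicate 3, 1.03 for replicate 1 and 0.178 for replicate 2. With quantile normalization the median was -0.85 and 0 of the 10 passed.

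Between the days, BSS gave a median member difference of 1.37, day 30 minus day 7, with 1.95 ± 1.50 for Cryba1, 1.92 ± 1.12 for Crybb2, 1.78 ± 1.39 for Cryaa and 0.75 ± 0.78 for Cryab. None of the 10 passed in limma (smallest adjusted p 0.732), beside 0.0143% of all, and at an unadjusted p under 0.05, 0 of the 10 and 7.1% of all were called. Differences over 1 in size were found for 7 of the 10 and 0.0658% of all, and the median was 0.85 without BSS day 30 replicate 3 and 2.16 without BSS day 30 replicate 2. With TAA the median was 1.97, and Cryba1 at 3.51 ± 1.50 and Cryaa at 3.24 ± 1.39 had the largest differences; 3 of the 10 were higher at an unadjusted p under 0.05, beside 5.1% of all, and 0 passed after adjustment (smallest 0.368), beside 0% of all. Without TAA day 30 replicate 3 that median was 0.24, with Cryba1 at 2.01 and Cryaa at 1.49, and the count at an unadjusted p was made with all arrays only. With DEX the median was 0.30 (range -0.29 to 1.46), and 0 of the 10 passed (smallest adjusted p 0.56), while 2% of all probe sets did; at an unadjusted p under 0.05 the counts were 0 of the 10 and 18.7% of all. This DEX median was 0.72 without DEX day 30 replicate 1, 0.63 without DEX day 7 replicate 1, 0.097 without DEX day 7 replicate 3 and 0.068 without DEX day 30 replicate 3, and it turned to -0.27 with array weights. The change of the DEX effect between the days, -0.97 in the median, and of the TAA effect, 0.34, called 0 of the 10 and 0% of all, with smallest adjusted p-values of 0.833 and 0.948. At an unadjusted p under 0.05 both called 0 of the 10, beside 8.45% and 5.83% of all. Leaving out 1 array, these medians ran from -1.67 (without BSS day 30 replicate 2) to -0.44 (without DEX day 30 replicate 1) and from -1.15 (without TAA day 30 replicate 3) to 1.33 (without TAA day 30 replicate 2).

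**Figure D3:**
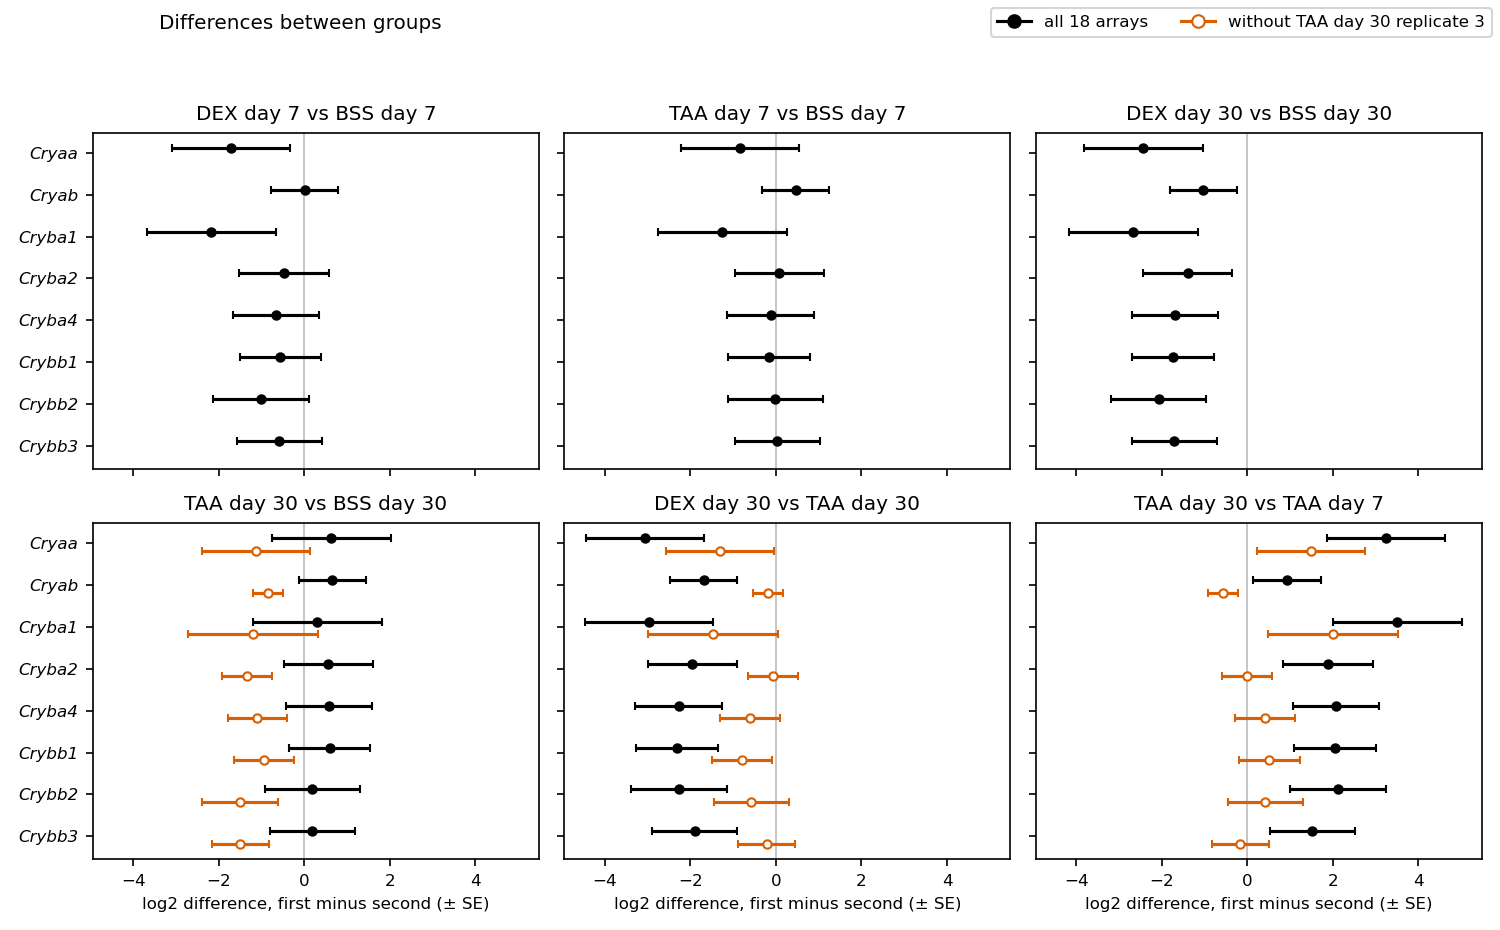
Fitted log2 differences between groups (horizontal axis, bars are ± SE) for the 8 genes, 1 probe set per gene, in 6 comparisons; filled points use all 18 arrays and open points leave out TAA day 30 replicate 3. In dexamethasone against BSS at day 30 the genes lie between -2.66 and -1.03, and the open points lie nearer to or below 0 where that array is compared.

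Other lens genes were high on the same arrays. Of 8 measured lens fibre genes other than crystallins, 6 were above 1 on TAA day 30 replicate 3, with a mean of 2.66. On that array Mip, the lens aquaporin, was at 5.40, Lim2, a lens membrane protein, at 2.19 and Bfsp1, a beaded filament protein, at 2.03, while Birc7 was at -0.015. By group, the array means of this list ran from -0.084 to 0.054 with BSS, -0.20 to -0.12 with DEX and -0.24 to 0.34 with TAA at day 7. At day 30 they ran from 0.0030 to 1.03, from -0.16 to 0.18 and from -0.013 to 2.66. No gene of the list passed the adjusted test in any of the 11 comparisons, and its part in the crystallin values was not tested.

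The 4 arrays low for the crystallins were also the 4 lowest of the 18 for the lens fibre list, by a smaller amount. The mean of the list was between -0.24 and -0.16 there, and the next lowest array, DEX day 7 replicate 1, was at -0.12. Bfsp1 was at -0.54 on DEX day 7 replicate 2 and -0.46 on DEX day 7 replicate 3. Bfsp2, its partner in the beaded filament, was at -0.46 on TAA day 7 replicate 2 and -0.50 on DEX day 30 replicate 1. Mip and Lim2 fell less: their lowest values on any of the 18 arrays were -0.24 and -0.254. Crygs, chosen after its values were seen because it ranked second in spread, was at -3.06, -3.28, -3.80 and -3.35 on these arrays, in the order named above, and at 5.49 on TAA day 30 replicate 3. Cryaa, Cryba1 and Crygs thus had the same 4 low arrays.

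The gamma crystallins split. Crygb, a gamma crystallin of lens fibre cells, was at 3.27 on BSS day 30 replicate 3 and 3.08 on TAA day 7 replicate 1, and Crygd, its close relative, at 3.32 and 3.01. On TAA day 30 replicate 3, the array where the alpha and beta crystallins were highest, the 6 measured gamma crystallins had a mean of 1.22 and 2 of them were above 1, Crygs at 5.49 and Crygn at 2.43. The other 4 were near or below 0 there, Crygb at -0.28, Crygf at -0.30, Crygd at -0.045 and Cryga at 0.001. Crygb and Crygd are close in sequence, so signal shared between their probe sets cannot be told apart. None of the 6 measured gamma crystallins passed in any comparison.

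Lists of other cell types moved less on TAA day 30 replicate 3. The cornea and surface epithelium list had a mean of 0.46, with Krt12 at -0.15 and Krt5 at -0.17, and Aldh3a1, chosen after its values were seen, at 4.28. The pigment epithelium list had a mean of 0.49, the rod list 0.026 and the reactive glia list -0.87. The pigment epithelium and cornea means were the highest of the 18 arrays for their lists, with the next highest at 0.292 and 0.116. The rod means ran from -0.125 to 0.157 over the 18 arrays, and because the values are centred they cannot show whether rods were present. Of the lens transcription factors, Maf was at 1.28 on that array and at 1.08 on TAA day 7 replicate 2, Pax6 at -0.14 and Prox1 at -0.78.

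Stress and steroid genes gave few calls. Of 7 small heat shock proteins other than the alpha crystallins and of 10 glucocorticoid targets, 0 passed in any comparison. Of the 8 heat shock chaperones, 2 were higher, and of the 11 reactive glia genes, 2 were lower, in DEX day 30 against DEX day 7 (limma, adjusted p under 0.05), beside 0.492% of all probe sets higher and 1.51% lower. That comparison called 700 of all probe sets, 2 without DEX day 7 replicate 1, 10 without DEX day 7 replicate 2, 416 without DEX day 7 replicate 3, 6 without DEX day 30 replicate 1, 7 without DEX day 30 replicate 2, 2590 without DEX day 30 replicate 3, and 1 with only the arrays compared in the fit. The glucocorticoid targets averaged 0.30 to 1.09 with TAA at day 7, above the -0.006 to 0.15 with DEX and the -0.038 to -0.017 with BSS at day 7. Among the TAA day 7 arrays, replicate 1 had 1.09 and a crystallin mean of 0.70, replicate 2 had 0.75 and -1.76, and replicate 3 had 0.30 and -0.034.

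**Figure D4:**
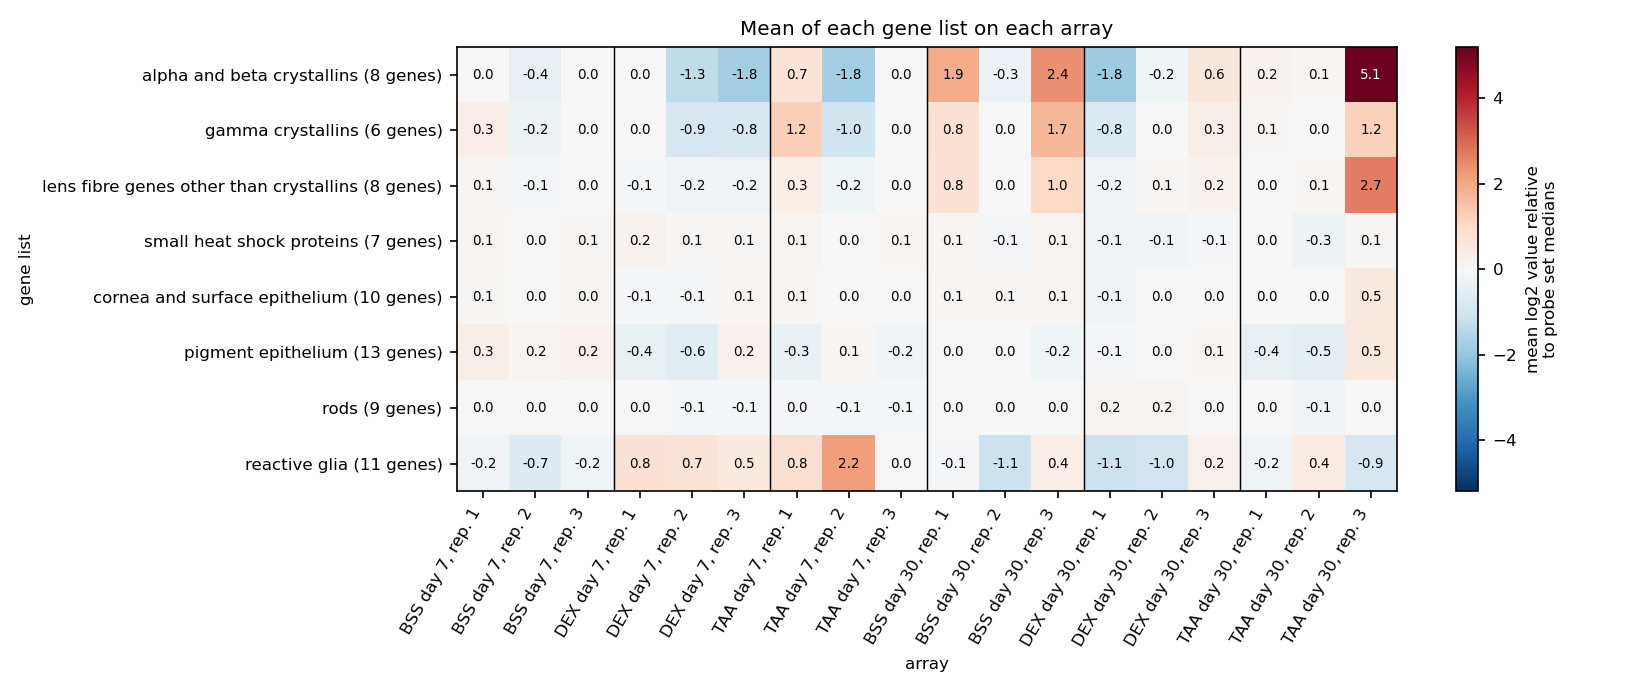
Mean log2 value relative to the probe set median (colour and number) of the members and of 7 gene lists on each of the 18 arrays, with arrays in columns by group. The lens fibre list reaches 2.66 on TAA day 30 replicate 3, where the alpha and beta crystallins reach 5.11.

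The genes whose values were most like the mean of the 8 across arrays were lens genes in part. By the correlation over 18 arrays they were Bfsp2 (0.968), Bfsp1 (0.943), Tmem40 (0.926), Grifin (0.915), Fbxw22 (0.909), Lim2 (0.907), Mip (0.902), Tinag (0.877), Lix1 (0.853) and Lama2 (0.853). Without TAA day 30 replicate 3 they ran from 0.643 for Lama2 to 0.929 for Bfsp2, and Bfsp2, Tmem40, Bfsp1 and Grifin were the 4 highest. Tinag, Lix1 and Lama2 then ranked 142, 317 and 419. Those most like Cryab alone were Grifin (0.953), Gja3 (0.938), Mip (0.93), Tmem40 (0.923) and Lim2 (0.92), which without that array were 0.762, 0.736, 0.697, 0.607 and 0.666. By rank (Spearman) correlation with Cryab over the 18 arrays they had 0.61, 0.573, 0.267, 0.672 and 0.391, in the same order. On TAA day 30 replicate 3 Gja3, a lens gap junction protein, was at 4.72 and Grifin, a lens galectin-related protein, at 4.71.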

How the data were processed

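Retinal RNA was amplified by the labels' 2-cycle protocol and hybridized to 18 arrays. The authors deposited log2 values made with RMA, per the submitters' processing notes; its version and settings are not given in the sources used here. Each probe set was centred on its median over the arrays (within 5e-07 of 0), which leaves no level to filter on. The 3 arrays per group limit the precision. Of 45101 probe sets, 64 controls, 932 that name several genes and 9160 unnamed here were left out, and the fit ran on 34945. One coefficient per group was fitted over all 18 arrays with limma 3.58.1 in R 4.3.3 (12 residual degrees of freedom, 5.3 prior), tested on simulated data, with Benjamini-Hochberg adjustment over all probe sets and a threshold of 0.05. Where 1 value per gene is given, the probe set of highest interquartile range was used. The rule for naming genes was the 8 members, the 10 genes outside the crystallins most correlated with their mean and the 5 most correlated with Cryab, and the first 3 measured genes of each of 12 lists (106 of 115 genes measured); others are said to be chosen after their values were seen. The members and lists were chosen with earlier results of these data known. Alternatives were quantile normalization, array weights, robust moderation, a filter on low variation, 1 probe set per gene, only the arrays compared, a replicate block and each array left out. Counts, promoters and figures used Python 3.11.15 and pandas 2.3.3. No 2 arrays held the same values: the highest correlation between any 2 was 0.688.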

Additional observations from a re-analysis of the deposited data

How the results depend on the processing

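With 3 arrays a group and members that differ by several log2 units between replicates, the direction of many differences hung on single arrays. Of the 56 gene differences of the 7 comparisons reported by gene, 19 turned sign when 1 array was left out. None of the rest of the 56 turned sign with quantile normalization, array weights or arrays left out, the alternatives that could move them. The replicate block, robust moderation, 1 probe set per gene, the filter on low variation and only the arrays compared leave these differences as they are. In TAA against BSS at day 7 the differences ran, leaving out 1 array, for Crybb1 -0.73 to 0.56, Crybb3 -0.40 to 0.44, Cryba2 -0.32 to 0.54, Crybb2 -0.65 to 0.80, Cryba4 -0.66 to 0.40, Cryba1 -2.17 to 0.27 and Cryaa -1.58 to 0.39. In TAA against BSS at day 30 they ran for Cryab -0.85 to 1.55, Crybb1 -0.94 to 1.43, Crybb3 -1.49 to 1.26, Cryba2 -1.33 to 1.54, Crybb2 -1.50 to 1.06, Cryba4 -1.09 to 1.42, Cryba1 -1.19 to 1.17 and Cryaa -1.13 to 1.58. In TAA day 30 against TAA day 7 they ran for Cryab -0.58 to 1.83, Crybb3 -0.16 to 2.59 and Cryba2 -0.0094 to 2.86, and in DEX against BSS at day 7 for Cryab -0.11 to 0.13. The median member difference ran from -1.11 to 1.27 in TAA against BSS at day 30, -2.98 to -0.39 in DEX against TAA at day 30, 0.24 to 2.85 in TAA between the days and -1.15 to 1.33 in the change of the TAA effect, each time furthest from the full value without TAA day 30 replicate 3. In comparisons without that array it ran from -2.47 to -1.06 in DEX against BSS at day 30, -1.04 to -0.14 in DEX against TAA at day 7 and 0.068 to 0.72 in DEX between the days, where array weights gave -0.27. Leaving out 1 array called 0 of the 10 members in every comparison.

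Quantile normalization turned TAA against BSS at day 7 to 0.0059 for Crybb1 and 0.17 for Crybb2, and at day 30 to -0.25 for Cryab, -0.31 for Crybb1, -0.47 for Crybb3, -0.18 for Cryba2, -0.55 for Crybb2, -0.29 for Cryba4, -0.43 for Cryba1 and -0.096 for Cryaa. That normalization gave a median of -0.85 in DEX against TAA at day 30, beside -2.11 in the main fit. It gave -1.31 in DEX against BSS at day 30, beside -1.70, and 0.83 in TAA between the days, beside 1.97. It called 0 of the 10 members in each of the 11 comparisons. Array weights turned TAA against BSS at day 7 to 0.19 for Crybb1, 0.40 for Crybb2 and 0.10 for Cryaa. With them 1 of the 10 members passed in DEX against BSS at day 30 (Cryba1, -4.38, limma adjusted p 0.0398), beside 5200 of all probe sets, and 9 passed in DEX against TAA at day 30, with a median of -3.82, beside 4356 of all. The weights were lowest for TAA day 30 replicate 2 (0.178), TAA day 7 replicate 2 (0.261) and DEX day 30 replicate 3 (0.267), and 1.66 for TAA day 30 replicate 3. The cause was not tested, and the weighted fits were made with all arrays only. Without the 2 arrays of widest spread, an alternative chosen after seeing the data, TAA against BSS at day 7 was 0.56 for Crybb1, 0.80 for Crybb2, 0.40 for Cryba4, 0.27 for Cryba1 and 0.39 for Cryaa. Only TAA day 7 replicate 2 of these arrays is in that comparison, so the values repeat those with it left out.

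Pairing of the samples by replicate number was not shown. Deviations from group means correlated from -0.239 to 0.487 (median 0.0461) over 45 pairs of the same number. Over 90 others they correlated from -0.572 to 0.43 (median -0.0126). With the replicate block 0 of the 10 members passed in each of the 11 comparisons. Every group holds the same replicate numbers, so the block could not move the differences (median -1.70 in DEX against BSS at day 30). Only the tests could change. Over all probe sets, calls went from 700 to 801 in DEX between the days and from 0 to 7 in TAA between the days.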
